A study of Rattus norvegicus with 4 samples.

Results

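Inherited peripheral neuropathies, of which Charcot-Marie-Tooth disease is the most common, are caused by variants in many genes with unlike functions. The expression of 37 such genes was examined in S16 cells, an immortalized rat Schwann cell line, and these were chosen by name from the disease and not from their values. Of the 37 genes, 36 were listed under their own symbol and Sbf2 was listed under an older symbol, RGD1559442, among 30708 genes in all. S16 cells were unmodified and came from 2 populations, one at passage 9, which is the parental population of the study's enhancer-deleted clones, and one at passage 39, both kept in standard medium and harvested from confluent flasks with no treatment. Each population was represented by 2 poly(A) RNA-Seq libraries that the labels number as technical replicates 1 and 2, which gave 4 libraries. The series' design calls the populations independent biological replicates, but each passage is a single population of the same line, so passage and population cannot be told apart. Levels are given in RPKM (reads for each kilobase of a gene in each 1000000 reads), which allows levels of different genes to be compared per length.

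Peripheral nerve axons are wrapped and fed by Schwann cells. Demyelinating neuropathies start from genes that the Schwann cell needs for its membrane traffic, its phosphoinositide lipids or its myelin sheath, while axonal neuropathies start from genes that the long axon needs for mitochondria, motors and protein quality control, many of which are used in most cell types. Among the proteins of quality control are the small heat shock proteins, which hold unfolded proteins in a soluble state, and 3 of them are neuropathy genes (Hspb1, Hspb3 and Hspb8).

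The libraries that share a technical replicate number were closer to each other than the libraries that share a passage. The 95% counting intervals of the 2 libraries of passage 9 lay apart for 60.7% of 11005 genes and those of passage 39 for 59.1%, whereas only 0.927% of genes lay apart between the passages in the libraries numbered 1 and 1.85% in those numbered 2. This goes against the labels, under which the 2 libraries of a passage repeat 1 sample. The labels were used as given, and whether passage and replicate number were exchanged in them was not tested, so a difference by passage or by number holds only as far as the labels do. The values below are thus given for each library, first for passage 9 (technical replicates 1 and 2) and then for passage 39 (technical replicates 1 and 2), and the libraries numbered 1 and 2 are called the first and the second libraries. Totals recovered from the values were between 34246093 and 41382234 reads, which is more than the approximate depth per cell line that the study states. Among cell type markers, 8 of 10 Schwann cell genes reached 1 RPKM in all 4 libraries, beside 34.9% of all 30708 listed genes. So did 3 of 11 neuron genes (Tubb3, Nefl and Nefm), 3 of 8 fibroblast genes (Pdgfra, Col1a1 and Col3a1) and 2 of 6 melanocyte genes (Pmel and Mitf). The shares of these 3 lists were 27.3%, 37.5% and 33.3%, near that of all listed genes. The other 8 neuron genes were under 0.1 RPKM in every library, 3 of them listed at 0, and of the fibroblast genes Dcn averaged 0.0033 RPKM while Col1a1, at 3588 RPKM, had the highest level of all listed genes and Col3a1 was at 65.9 RPKM. Among the Schwann cell genes, S100b and Cdh19 were lower in the second libraries, at means of 32.3 and 0.154 RPKM against 86.2 and 1.72 RPKM in the first, whereas Egr2 was higher, at 10.7 against 6.05 RPKM, and Sox10 was at 179.5 against 172.6 RPKM and Pmp22 at 1290 against 1220 RPKM.

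The promoters of the 3 small heat shock genes are shown because 1 of these genes was among the highest of the 37 in S16 cells and the other 2 were at or near 0. Each sequence runs from 250 bases before to 50 bases after the transcription start and was taken from RefSeq with coordinates of GRCr8, a later build than the one behind the expression values. The capitals mark GAANNTTC, a pair of inverted GAA repeats as bound by heat shock factors, which was searched on both strands, reads the same on both and was chosen after the levels were seen. Hspb1 lies on the minus strand at chr12:26432252-26432551 and holds 2 matches, 129 and 109 bases before the start. Hspb8 lies on the plus strand at chr12:45837058-45837357 with 1 match, 23 bases before the start, and Hspb3 lies on the minus strand at chr2:47029116-47029415 with 0 matches.
Hspb1: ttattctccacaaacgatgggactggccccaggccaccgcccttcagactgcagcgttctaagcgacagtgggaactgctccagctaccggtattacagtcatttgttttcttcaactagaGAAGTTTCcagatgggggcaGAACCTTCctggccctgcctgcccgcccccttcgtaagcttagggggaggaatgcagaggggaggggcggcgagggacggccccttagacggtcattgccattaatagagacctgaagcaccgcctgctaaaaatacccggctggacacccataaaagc
Hspb8: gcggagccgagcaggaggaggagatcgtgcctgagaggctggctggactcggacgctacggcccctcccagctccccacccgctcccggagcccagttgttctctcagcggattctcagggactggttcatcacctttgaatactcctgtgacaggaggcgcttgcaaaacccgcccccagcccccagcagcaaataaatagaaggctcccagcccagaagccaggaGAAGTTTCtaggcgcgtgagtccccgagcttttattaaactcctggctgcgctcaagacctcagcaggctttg
Hspb3: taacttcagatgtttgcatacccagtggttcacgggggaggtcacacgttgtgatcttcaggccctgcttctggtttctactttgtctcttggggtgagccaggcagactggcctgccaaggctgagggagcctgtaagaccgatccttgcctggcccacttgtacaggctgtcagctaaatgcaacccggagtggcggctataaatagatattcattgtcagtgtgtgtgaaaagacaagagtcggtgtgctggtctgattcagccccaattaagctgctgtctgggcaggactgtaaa
The same letters were found in 2875 of 33469 promoters of this length (8.59%) and in 3 of the 33 neuropathy genes with a promoter in the table (Fgd4, Hspb1 and Hspb8). The gene listed at the highest level of the 3 heat shock genes and one near 0 thus both held a match, and a match is a description of the sequence only.

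Most of the neuropathy genes were expressed in S16 cells. In all 4 libraries 30 of the 37 genes reached at least 1 RPKM, compared with 34.9% of all 30708 listed genes. The median of the gene means was 13.6 RPKM over the 37 genes, 0.040 RPKM over all listed genes and 11.6 RPKM over the 10720 genes that reached 1 RPKM in every library. Fgd4 reached 1 RPKM in some libraries, and 6 genes (Mfn2, Gdap1, Surf1, Hspb3, Hspb8 and Fbln5) were under 1 RPKM in every library. Of 42 other inherited neuropathy genes listed, 32 (76.2%) were detected in the same way. The plot of levels by gene and library shows all 37 genes by the role of their protein.

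**Figure D1:**
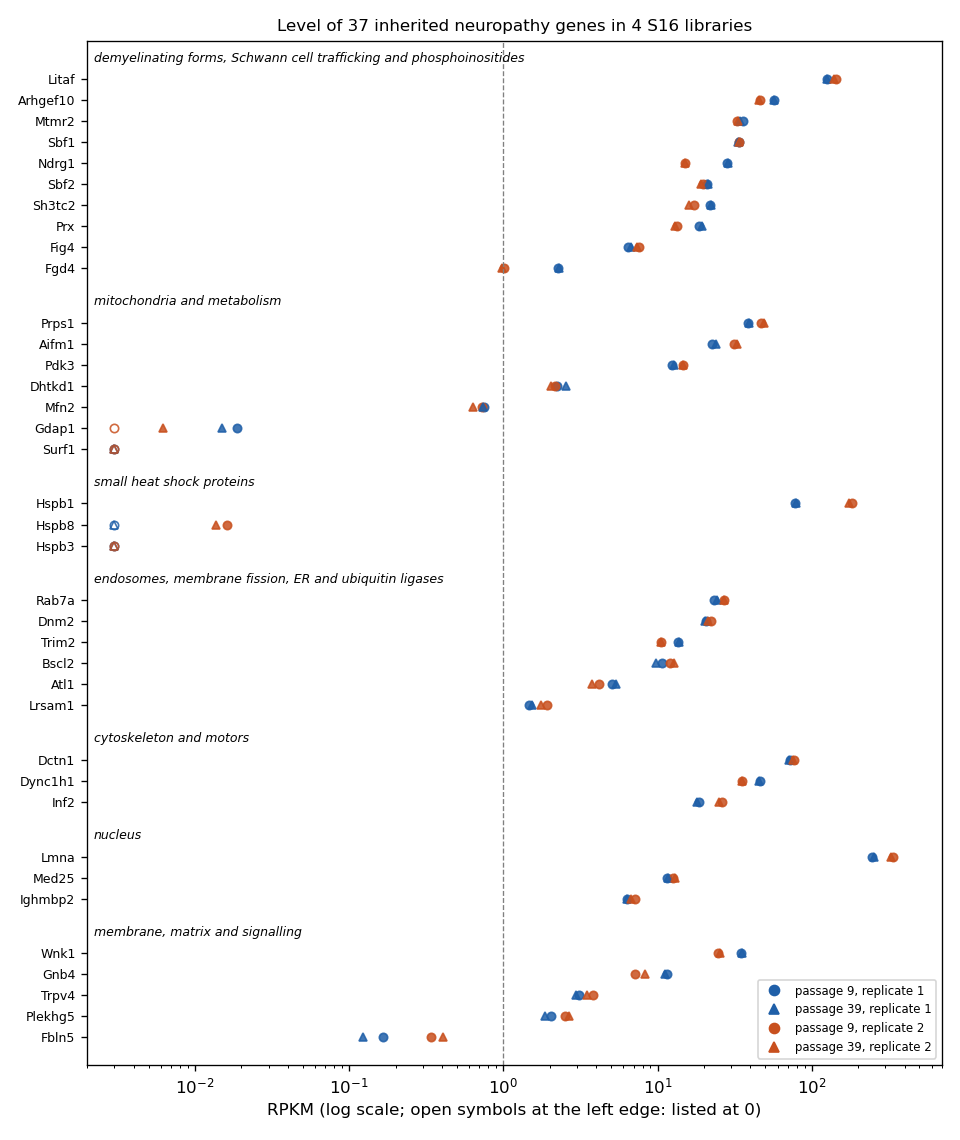
RPKM on a log scale of the 37 neuropathy genes, grouped by role, with 1 symbol for each of the 4 libraries (circles, passage 9; triangles, passage 39; blue, technical replicate 1; orange, technical replicate 2); the dashed line marks 1 RPKM and open symbols at the left edge are values listed at 0. Most genes lie to the right of the line, 6 lie to its left in every library, and symbols of one colour lie closer together than symbols of one shape.

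**Figure D2:**
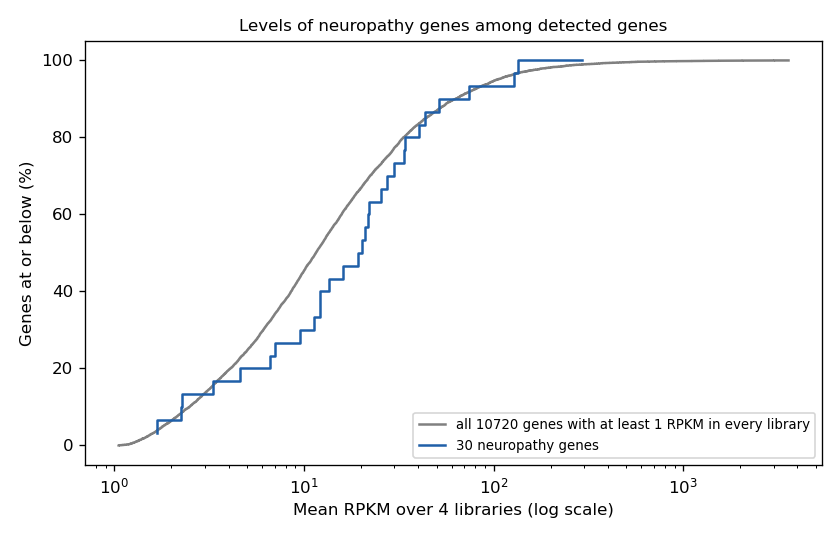
Share of genes (%) at or below a mean level over the 4 libraries (RPKM, log scale) for the 30 detected neuropathy genes (blue) and all 10720 detected genes (grey). The neuropathy genes run from Lrsam1 at 1.67 RPKM to Lmna at 291 RPKM, and in the middle of the range their curve lies below that of all genes.

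The 10 genes grouped here under demyelinating forms were all at 0.978 RPKM or more in every library. The group does not hold every gene of a demyelinating form, so this level is not a statement about such genes placed under other roles. Litaf, a membrane protein of late endosomes and lysosomes, was the highest of these 10, at 124.8 and 144.7 RPKM in passage 9 and 125.8 and 140.5 RPKM in passage 39, above 96.7% of detected genes. Arhgef10, an exchange factor for small GTPases, was at 57.1 and 45.9 RPKM in passage 9 and 57.2 and 45.8 RPKM in passage 39. The second libraries were the high ones for Litaf and the low ones for Arhgef10, and for neither gene did first and second libraries overlap.

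Mtmr2 is a phosphatase of phosphoinositides, and Sbf1 and Sbf2 are its inactive relatives that bind to it. Mtmr2 was at 35.9, 33.0, 34.3 and 33.2 RPKM. Sbf1 was at 33.7, 33.6, 33.5 and 33.6 RPKM, with counting intervals that overlapped. Sbf2 was lower, at 21.0, 19.6, 21.4 and 19.1 RPKM. Mtmr2 and Sbf1 could not be put in order, since Sbf1 was the higher of the pair in the second libraries and Mtmr2 in the first. Fig4, which acts on the doubly phosphorylated lipid of late endosomes, was between 6.47 and 7.54 RPKM.

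Prx, which encodes periaxin, a scaffold of the myelinating Schwann cell membrane, was at 18.7, 13.3, 19.5 and 13.0 RPKM. Sh3tc2, a protein of recycling endosomes in Schwann cells, was at 21.9, 17.2, 22.3 and 16.1 RPKM. Both were lower in the second libraries of each passage. Ndrg1, a cytoplasmic protein that is abundant in Schwann cells, was at 28.2 and 15.1 RPKM in passage 9 (3495 and 1589 reads) and at 28.6 and 15.1 RPKM in passage 39 (2936 and 1855 reads). Fgd4, which encodes the Cdc42 exchange factor frabin, was at 2.27 and 1.01 RPKM in passage 9 (447 and 168 reads) and at 2.28 and 0.978 RPKM in passage 39 (371 and 191 reads). Only the last library was under 1 RPKM, and its counting interval, from 0.844 to 1.13 RPKM, included that minimum.

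Of 7 mitochondrial and metabolic genes, 4 were detected. Prps1, which makes phosphoribosyl pyrophosphate for nucleotide synthesis, was at 38.5, 47.2, 38.9 and 49.1 RPKM. Aifm1, a flavoprotein of the mitochondrial intermembrane space, was at 22.7, 31.1, 23.8 and 32.6 RPKM. In both genes the second libraries were higher. Pdk3, a kinase that inhibits pyruvate dehydrogenase, was between 12.4 and 14.7 RPKM, and Dhtkd1, a dehydrogenase of lysine breakdown, between 2.05 and 2.53 RPKM.

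The remaining 3 mitochondrial genes were low or listed at 0. Mfn2, a GTPase that fuses mitochondria, was at 0.746, 0.726, 0.738 and 0.631 RPKM, from between 117 and 143 reads a library. Its 95% counting intervals overlapped in all 4 libraries and had their highest bound at 0.884 RPKM, so its listed level was under 1 RPKM beyond counting error. Other reasons for a low listing were not tested. Its 2 neighbours on the chromosome, by gene order in RefSeq, were Miip, listed at 0 in all 4 libraries, and Plod1, between 75.0 and 76.5 RPKM. Gdap1, an outer mitochondrial membrane protein, rested on 3, 0, 2 and 1 reads, and the upper bounds of its counting intervals were at most 0.0543 RPKM. The genes around Gdap1 were Jph1, at no more than 0.0409 RPKM, and Pi15, listed at 0.

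Surf1, an assembly factor of cytochrome c oxidase, was listed at 0 in all 4 libraries. It lies in a dense cluster of housekeeping genes, and the adjacent genes were also at or near 0. Surf2 was listed at 0 in every library, Med22 at 0.0181 RPKM in 1 library and at 0 in the others, and Rpl7a, a ribosomal protein gene that every cell uses, at between 0.0335 and 0.172 RPKM. Surf4 and Surf6 of the same cluster were at 2.28 to 2.83 RPKM and 5.28 to 6.99 RPKM. A listing at 0 next to a ribosomal protein gene near 0 is therefore given only as a listing, and whether Surf1 is expressed cannot be read from it.

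The small heat shock genes were at the extremes of the range. Hspb1 was at 78.3 and 182 RPKM in passage 9 (2560 and 5055 reads) and at 79.4 and 174 RPKM in passage 39 (2149 and 5661 reads). Its counting intervals were 75.3 to 81.4 and 177 to 187 RPKM in passage 9. Hspb1 was below Litaf in both first libraries and above it in both second libraries, so their order depends on the library. Hspb8 rested on 0, 1, 0 and 1 reads, which allows at most 0.0895 RPKM by the widest counting interval, and Hspb3 was listed at 0 in every library. The genes beside Hspb8, Srrm4 and Ccdc60, were at 0 or within 0.0035 RPKM of it, whereas of the 2 genes beside Hspb3, Snx18 was between 20.3 and 20.7 RPKM and LOC100359700 at no more than 0.0853 RPKM. In a list of 9 genes of the small heat shock family, added after the values were seen, 4 (44.4%) were detected, beside 34.9% of all 30708 listed genes. Cryab, a lens and stress chaperone, was the highest of the 9 at 986, 1623, 978 and 1566 RPKM.

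All 6 genes of endosomes, membrane fission, the endoplasmic reticulum and ubiquitin ligation were detected. Rab7a, the GTPase of late endosomes, was at 23.3, 26.8, 24.3 and 27.0 RPKM. Dnm2, a GTPase that pinches off vesicles, was at 20.5, 22.2, 20.4 and 21.2 RPKM. Trim2, a ubiquitin ligase, was at 13.6, 10.5, 13.7 and 10.5 RPKM. Of the 3 genes only Trim2 was lower in the second libraries. Bscl2, the lipid droplet protein seipin, was between 9.79 and 12.8 RPKM, Atl1, the atlastin that fuses tubules of the endoplasmic reticulum, between 3.77 and 5.40 RPKM, and Lrsam1, a ubiquitin ligase, between 1.47 and 1.93 RPKM.

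The cytoskeletal and motor genes were all at 18.1 RPKM or more. Dctn1, the large dynactin subunit, was at 71.8, 77.0, 71.4 and 75.4 RPKM. Dync1h1, the heavy chain of the dynein motor that dynactin activates, was at 46.0, 35.1, 45.4 and 35.2 RPKM. Inf2, a formin that shapes actin filaments, was at 18.5, 26.3, 18.1 and 24.9 RPKM. The second libraries were higher for Dctn1 and Inf2 and lower for Dync1h1.

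Lmna, which encodes the lamins of the nuclear envelope, had the highest level of the 37 genes, at 246 and 339 RPKM in passage 9 and 253 and 328 RPKM in passage 39, above 98.9% of detected genes. Its second libraries were above its first libraries in both passages. At 27146 to 42181 reads a library, Lmna was also the only one of the 31 genes whose counting intervals lay apart between the passages in the first libraries (243 to 249 against 250 to 256 RPKM). In the second libraries, Lmna and Sh3tc2 were the 2 that lay apart. Over 11005 genes the shares were 0.927% and 1.85%. Med25, a subunit of the Mediator complex, was at 11.6, 12.7, 11.7 and 13.0 RPKM, and Ighmbp2, a helicase, at 6.33, 7.10, 6.30 and 6.77 RPKM.

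Among 5 genes of the membrane, the matrix and signalling, Wnk1, a kinase that controls chloride transport, was the highest, at 34.5, 24.6, 35.1 and 25.5 RPKM. Gnb4, a beta subunit of G proteins, was at 11.5, 7.18, 11.3 and 8.28 RPKM. Both were lower in the second libraries. Trpv4, a calcium-permeable channel, was at 3.07, 3.79, 2.94 and 3.47 RPKM. Plekhg5, an exchange factor for small GTPases, was between 1.87 and 2.65 RPKM. Fbln5, a protein of elastic fibres, was under 1 RPKM, at 0.166, 0.337, 0.123 and 0.409 RPKM from 18, 31, 11 and 44 reads, and its counting intervals lay apart within passage 39 but not within passage 9.

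The second libraries were then compared with the first ones, with 2 libraries on each side that come from different passages. The test was a linear model (limma) on log2(RPKM + 1) over the 11025 genes whose mean reached 1 RPKM, of which 31 were neuropathy genes, and a gene was called at a Benjamini-Hochberg adjusted p under 0.05. By this test 29 of the 31 genes differed, 17 higher and 12 lower in the second libraries, where 73.7% of all genes tested differed (49.4% higher and 24.4% lower). Only Sbf1 and Dhtkd1 were not called, with adjusted p = 0.977 and adjusted p = 0.129 (limma), and both were called lower when the libraries were scaled in either of 2 other ways. With a further minimum of 1.5-fold on the same scale, 3 of the 31 genes were called (Hspb1, Ndrg1 and Fgd4), where 6.03% of all genes were (2.87% higher and 3.17% lower). Hspb1 was higher and the other two were lower.

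On the log2(RPKM + 1) scale as deposited, Hspb1 differed most among the 31 genes, with a log2 difference of 1.17 (SE 0.025, adjusted p = 5.0e-08), or a mean of 178 against 78.9 RPKM. Ndrg1 was lower in the second libraries by the log2 difference of -0.87 (SE 0.028, adjusted p = 2.4e-07), or a mean of 15.1 against 28.4 RPKM. Fgd4 was also lower, at -0.72 (SE 0.058, adjusted p = 1.7e-05), which is 1.64-fold on the log2(RPKM + 1) scale and 2.29-fold in RPKM, since the pseudocount of 1 RPKM understates the difference of low genes. In RPKM, Fgd4 and Hspb1 (2.26-fold) were thus close to each other, and with libraries rescaled to a sum of 1000000 the log2 differences were -1.10 for Fgd4, -1.04 for Ndrg1 and 1.03 for Hspb1, so the order of the 3 genes depends on the scale. For each of these 3 genes the difference had the same direction in both passages, at 1.21 and 1.12 for Hspb1, -0.86 and -0.88 for Ndrg1, and -0.71 and -0.73 for Fgd4. Prx at -0.51, Gnb4 at -0.50, Wnk1 at -0.46 and Inf2 at 0.46 were the next in size.

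By role, the 10 genes grouped under demyelinating forms were mostly lower in the second libraries, with 7 of 10 called lower, 2 higher (Litaf and Fig4) and 1 not called. This holds for the group as drawn here and not for every gene of a demyelinating form. Of all genes tested, 24.4% were called lower and 49.4% higher. The median difference of the 10 grouped genes was -0.22 where the median of all genes tested was 0.10. The lower ones were Ndrg1, Fgd4, Prx, Sh3tc2 (-0.39), Arhgef10 (-0.31), Sbf2 (-0.12) and Mtmr2 (-0.084). Relative to genes of similar length, Litaf (0.026), Fig4 (0.042) and Sbf2 (-0.033) were no longer called, while the other lower ones still were. S100b, among the Schwann cell markers, was lower in the second libraries, with a difference of -1.39. Of the 9 markers tested, 6 were called lower, 2 higher (Egr2 at 0.73 and Pmp22 at 0.080) and 1 not, beside the same shares of all genes. The summed level of the 10 Schwann cell markers was 1752 to 1765 RPKM in the first and 1689 to 1701 RPKM in the second libraries, and Pmp22 alone held 1216 to 1225 and 1287 to 1293 RPKM of it. Without Pmp22, the other 9 markers summed to 536 and 541 RPKM in the first and to 402 and 407 RPKM in the second libraries. Fewer cells of a type and less RNA per cell cannot be told apart in such samples, and the part of the markers' shift in the difference of the 10 grouped genes was not tested. Of the neuron markers tested, Tubb3 was called higher and Nefl and Nefm lower, with a summed level of 194 and 198 RPKM in the first and 163 and 164 RPKM in the second libraries, while Syt1, Stmn2 and Elavl4 were listed at 0 throughout. Of the fibroblast markers tested, Pdgfra and Col1a1 were called higher and Col3a1 lower, with a summed level of 3432 and 3446 RPKM in the first and 3826 and 3934 RPKM in the second libraries. Col1a1 held nearly all of that, and the other 7 fibroblast markers summed to 87.2 and 88.3 RPKM in the first and to 54.9 and 56.5 RPKM in the second libraries. The 2 melanocyte markers tested were not called, their list summed to between 11.0 and 11.9 RPKM, and Tyr was listed at 0 throughout.

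In the other roles the counts are small and stand beside 49.4% of all genes tested called higher, 24.4% called lower and an all-gene median of 0.10. Of the mitochondrial and metabolic genes tested, 3 of 4 were called higher (Aifm1 at 0.44, Prps1 at 0.31 and Pdk3 at 0.21), and all 3 nuclear genes were (Lmna at 0.42, Med25 at 0.13 and Ighmbp2 at 0.12, both close to the all-gene median). Among the 6 genes of endosomes and the endoplasmic reticulum, 4 were called higher (Bscl2, Lrsam1, Rab7a and Dnm2) and 2 lower (Trim2 at -0.35 and Atl1 at -0.33). The motor genes split, with Dync1h1 at -0.37 and Dctn1 at 0.089. Of the membrane and signalling genes, Trpv4 and Plekhg5 were called higher and Gnb4 and Wnk1 lower. The small heat shock family, added after the values were seen and with Hspb1 in it, had 4 genes tested, and all were called higher (Hspb1, Cryab at 0.70, Hspb6 at 0.37 and Hspb2 at 0.32), 2 of them by 1.5-fold, where 2.87% of all genes were.

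**Figure D3:**
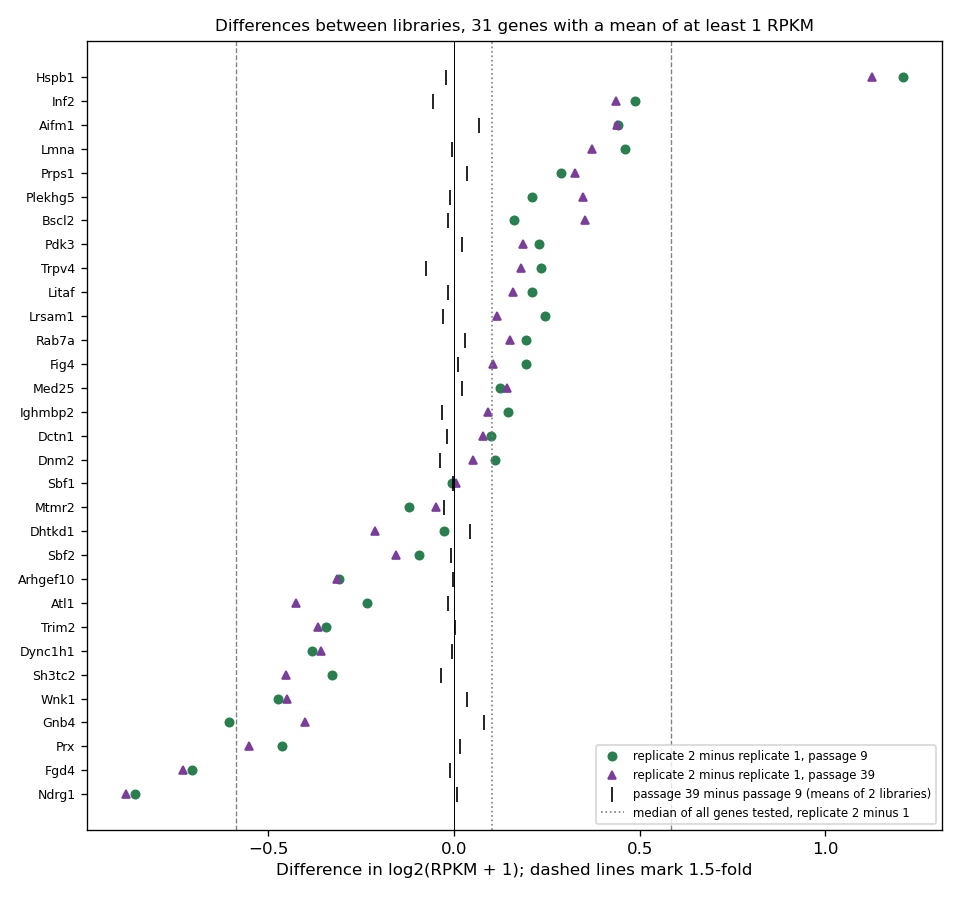
Difference in log2(RPKM + 1) for the 31 neuropathy genes whose mean reached 1 RPKM, ordered by size, as technical replicate 2 minus 1 in passage 9 (green circles) and in passage 39 (purple triangles) and as passage 39 minus 9 (black ticks); dashed lines mark 1.5-fold and the dotted line the median of all genes tested. Circles and triangles lie close to each other from Hspb1 at the top to Ndrg1 at the bottom, while the ticks stay between -0.074 and 0.080.

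The direction of the smaller differences depended on how the libraries were scaled. Summed over all genes, the RPKM values came to between 315847 and 351061, with the larger sums in the second libraries. When every library was rescaled to a sum of 1000000, the median difference of all genes tested moved from 0.10 to -0.026, and the neuropathy genes were 6 higher and 15 lower. With median-ratio scaling they were 10 higher and 14 lower. Relative to the median of all genes tested, Hspb1 was at 1.06, Ndrg1 at -0.97 and Fgd4 at -0.82. Of the 31 genes, 26 kept their direction under both scalings, and the exceptions were Sbf1, Dnm2, Dctn1, Med25 and Ighmbp2. Leaving out 1 library ended the calls of Mtmr2, Fig4, Dnm2, Lrsam1, Ighmbp2 and Trpv4.

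The difference between second and first libraries also ran with gene length. Over the 11005 tested genes with a length recovered from the RPKM values, in 20 bins of that length, the median difference went from 0.28 in the shortest bin (median 422 bp) to -0.23 in the longest (median 9546 bp). Among the 16 neuropathy genes of up to 3911 bp, 12 were called higher and 3 lower, with a median of 0.20. Among the 15 longer ones, 5 were called higher and 9 lower, with a median of -0.12. Relative to genes of similar length, Hspb1 (790 bp) was at 0.90, Ndrg1 (2997 bp) at -0.98 and Fgd4 (4753 bp) at -0.73. Dync1h1, the longest at 14096 bp, went to -0.14. Gnb4, the shortest by recovered length (726 bp), went against the trend and reached -0.77, and Rab7a, at 8345 bp, did so in the other direction and reached 0.40. A recovered length is too short where a factor shared by all 4 libraries is hidden, which was not checked for single genes. The order of the genes by length, their split at 3911 bp and each value relative to length hold only as far as the recovered lengths do.

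**Figure D4:**
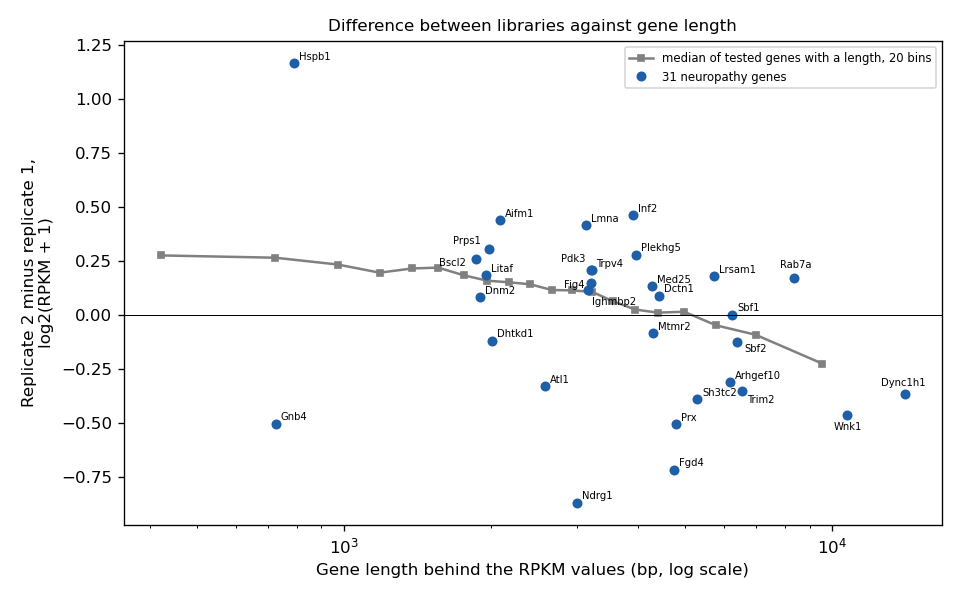
Difference in log2(RPKM + 1), technical replicate 2 minus 1, against the gene length behind the RPKM values (bp, log scale) for the 31 neuropathy genes (blue) and, in grey, the median of the 11005 tested genes with a recovered length in 20 bins. The grey line falls from 0.28 to -0.23, and Hspb1, Gnb4, Ndrg1 and Fgd4 lie far from it.

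The passages were compared by the same test, which called none of the genes. At an adjusted p under 0.05, limma called 0 of the 31 neuropathy genes and 0 of 11025 genes (0%), and at an unadjusted p under 0.05 it called 3 of all genes (0.0272%) and 0 of the 31. The differences of passage 39 minus passage 9 lay between -0.074 for Trpv4 and 0.080 for Gnb4. All 31 were under 0.1 in size. These p-values rest on the spread between the libraries of one passage, which for Hspb1 gave an SE of 0.58 around a difference of -0.022, so they could not have shown a small difference. Set against counting error alone, 25 of the 31 genes had intervals apart within passage 9 and 23 within passage 39, beside 60.7% and 59.1% of 11005 genes. Between the passages, 1 (first libraries) and 2 (second libraries) of the 31 had them apart, beside 0.927% and 1.85% of all those genes.

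The 42 other inherited neuropathy genes were examined by the same test, and none of them is among the 37. Of the 33 that were tested, 13 were called higher in the second libraries, 14 lower and 6 not, beside 49.4% of all genes called higher and 24.4% lower, with a median of -0.0054, and 0 were called between the passages. With a minimum of 1.5-fold, 1 was called higher and 4 lower, beside 2.87% and 3.17% of all genes. The higher one was Egr2, a transcription factor of myelination, at 0.73 (SE 0.043, limma adjusted p = 3.6e-06). The lower ones included Pmp2, a fatty acid binding protein of myelin, at -2.79, Dst, a cytoskeletal linker, at -0.87, and Nefl, the light neurofilament subunit, at -0.62. Pmp2 differed more than any of the 37 genes.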

How the data were processed

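RNA-Seq was analysed in 4 libraries of unmodified S16 cells. Per the labels and the methods, the authors made poly(A) TruSeq libraries, aligned reads with STAR to rn5, counted uniquely mapped reads with HTSeq without regard to strand, and deposited RPKM values per gene symbol. The gene lengths and the exact totals behind them are not given in the sources used here. The study states an approximate number of reads per cell line, which is lower than the totals recovered here for single libraries. The reason was not tested, so read counts and interval widths hold only as far as the recovered totals do. Reads from overlapping genes cannot be told apart, and genes with near-identical copies lose reads. Whole reads, lengths and totals were recovered from ratios of the RPKM values, for 18095 of the 18114 genes with 2 or more values above 0 (99.9%). A factor shared by all 4 libraries may be hidden in them, and in simulated libraries the reads of 92.8% of 17556 genes came back exactly. The 95% intervals (exact Clopper-Pearson) show counting error only.

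Differences were tested two-sided with limma 3.58.1 in R 4.3.3 (lmFit, eBayes with trend) on log2(RPKM + 1), for genes whose mean reached 1 RPKM, with Benjamini-Hochberg adjustment over all 11025. For second against first libraries, the p-values measure the spread between same-numbered libraries, which come from different passages. For the passages, they measure the spread between libraries labelled technical replicates. In simulated data for the comparison of second with first libraries, 100% of 100 genes changed 2-fold, 96.0% of 99 changed 1.5-fold and 0.231% of 10807 unchanged genes were called. The simulation had few changed genes and no trend with gene length, whereas 73.7% of genes tested were called in the data. Its rates therefore do not carry over to the comparison here. Other steps used scipy 1.17.1, pandas 2.3.3 and numpy 2.4.6 in Python 3.11.15.

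Values per library were given for the 6 highest genes, those under 1 RPKM in any library, those called at 1.5-fold, and up to 3 more of each role. The genes and lists were chosen with earlier results of these data known. The small heat shock family, the genes around Surf1 and the promoter motif were added after the values were seen, as were Egr2, Pmp2, Dst and Nefl among the other neuropathy genes. Alternatives were the pseudocount, the filter, 2 scalings, gene length, a block and each library left out. Some genes of the marker and neuropathy lists are counted but not reported here by name. The mutant and clonal libraries were not analysed here.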

Additional observations from a re-analysis of the deposited data

Results flagged for a closer look

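Sbf1 was the 1 gene of the 31 tested whose second and first libraries differed in opposite directions in the 2 passages, by -0.0041 on the log2(RPKM + 1) scale in passage 9 and by 0.0057 in passage 39. The difference between the passages was not tested, and the counting intervals of Sbf1 overlapped within both passages.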

How the results depend on the processing

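The count of neuropathy genes detected in every library (30) ranged from 25, with a minimum of 5 RPKM, to 32, and the count called between second and first libraries (29) from 21 to 29. The count called at 1.5-fold (3) was 6 with libraries rescaled to a sum of 1000000, which added Prx, Gnb4 and Wnk1. The median difference of the 31 genes (0.089) was 0.00026 with median-ratio scaling, -0.057 with a sum of 1000000, 0.026 relative to genes of similar length, -0.015 relative to all genes tested (added after seeing the data), and 0.074 to 0.115 with 1 library left out, the latter without technical replicate 2 of passage 39. Differences that turned negative were those of Sbf1 (-0.086 with median-ratio scaling, -0.14 with a sum of 1000000), Dnm2 (-0.0037, -0.060, and -0.077 relative to length), Dctn1 (-0.057), Med25 (-0.0018) and Ighmbp2 (-0.011), the last 3 with a sum of 1000000. For Dnm2 the value relative to length rests on a recovered length of 1903 bp. That length may be too short by a hidden factor, and the sign relative to length depends on it. The calls lost with 1 library left out had limma adjusted p between 0.0564 (Mtmr2) and 0.248 (Dnm2), and calls were gained by Dhtkd1 (adjusted p = 0.0472 without technical replicate 1 of passage 9, 0.0382 with median-ratio scaling, 0.0170 with a sum of 1000000, 0.00643 relative to length) and Sbf1 (0.0127 and 0.00121 with the 2 scalings). The call of Dhtkd1 relative to length rests on a recovered length of 2007 bp and has the same limit as the value of Dnm2. Between the passages 0 of the 31 genes were called under every alternative, and 9 to 13 of all genes with 1 library left out. With the technical replicate number as a replicate block, 0 of the 31 and 1 of all genes were called (643 at an unadjusted p under 0.05), with Aifm1 lowest in the list (adjusted p = 0.829). The correlation over 11025 genes of the second minus first difference in the 2 passages was 0.943, but with 2 pairs the numbers are taken as numbers only. The cause of these changes was not tested.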
